A study of Homo sapiens with 6 samples.

Results

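ISG15 is a small ubiquitin-like protein that a dedicated enzyme cascade attaches to other proteins, and its genes are described here as 7 members of 61517 genes in the deposited count table, chosen by symbol: the modifier ISG15, the E1 activating enzyme UBA7, the E2 conjugating enzyme UBE2L6, the ligases HERC5, HERC6 and ARIH1, and the protease USP18. All 7 were found, and all 7 passed the filter on low counts. RNA was sequenced in 6 libraries of THP-1, a human monocytic leukaemia cell line, after differentiation into macrophages and induction of pyroptosis with LPS and ATP. The 3 control libraries came from cells without a further drug, and the 3 ruxolitinib libraries from cells also given ruxolitinib, an inhibitor of the kinases JAK1 and JAK2, whose name is spelled Lukotinib in the treatment field. Both groups share the differentiation, the LPS and the ATP, so neither shows the resting level of these genes, and all libraries come from 1 leukaemia line. The sources used here do not give the dose, the times or the differentiating agent, and nothing says that the libraries of a group were separate cultures, so each p-value is set against the spread of these libraries, which may be technical.

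In the ISG15 cascade UBA7 activates the modifier, UBE2L6 receives it, and a ligase places it on newly made proteins. HERC5 is the main such ligase in human cells, HERC6 is its close relative and the main one in the mouse, and ARIH1 is a RING-between-RING ligase best known for work with cullin complexes and also reported to attach ISG15 to the cap-binding protein EIF4E2. USP18 removes ISG15 and, apart from that, binds the interferon receptor chain IFNAR2 and dampens signalling, and most genes of the cascade are known as targets of ISGF3, a transcription factor complex that contains STAT2 and IRF9 and is activated by JAK1 and TYK2.

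The promoter windows of ISG15 and HERC5 are shown because they hold the interferon-stimulated response element (ISRE) core, 2 GAAA runs with 2 bases between them, and those of HERC6 and ARIH1 because they do not, although HERC6 was far lower and ARIH1 was not lower with ruxolitinib. Each runs 5′ to 3′ from 250 bases before to 50 bases after the RefSeq start on GRCh38.p14, and capitals mark the ISRE core. The window of ISG15 is chr1:1013247-1013546, that of HERC5 chr4:88456869-88457168, that of HERC6 chr4:88378602-88378901 and that of ARIH1 chr15:72474080-72474379, all on the plus strand.
ISG15: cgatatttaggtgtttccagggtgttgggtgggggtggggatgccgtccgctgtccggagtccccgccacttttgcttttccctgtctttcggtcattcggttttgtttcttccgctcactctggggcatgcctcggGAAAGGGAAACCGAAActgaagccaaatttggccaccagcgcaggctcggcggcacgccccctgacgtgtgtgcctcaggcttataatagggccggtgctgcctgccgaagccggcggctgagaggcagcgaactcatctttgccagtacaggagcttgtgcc
HERC5: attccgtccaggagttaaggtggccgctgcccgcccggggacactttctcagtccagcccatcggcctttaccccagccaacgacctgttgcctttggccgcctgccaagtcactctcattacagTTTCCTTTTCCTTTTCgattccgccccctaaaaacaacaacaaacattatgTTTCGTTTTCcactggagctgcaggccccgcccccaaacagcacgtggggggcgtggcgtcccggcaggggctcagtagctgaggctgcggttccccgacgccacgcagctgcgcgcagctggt
HERC6: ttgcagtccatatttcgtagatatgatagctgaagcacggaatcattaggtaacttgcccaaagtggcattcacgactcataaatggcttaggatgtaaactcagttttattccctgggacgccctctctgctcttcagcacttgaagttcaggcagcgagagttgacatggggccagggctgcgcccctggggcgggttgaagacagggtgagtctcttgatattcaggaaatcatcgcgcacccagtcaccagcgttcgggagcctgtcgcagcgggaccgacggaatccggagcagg
ARIH1: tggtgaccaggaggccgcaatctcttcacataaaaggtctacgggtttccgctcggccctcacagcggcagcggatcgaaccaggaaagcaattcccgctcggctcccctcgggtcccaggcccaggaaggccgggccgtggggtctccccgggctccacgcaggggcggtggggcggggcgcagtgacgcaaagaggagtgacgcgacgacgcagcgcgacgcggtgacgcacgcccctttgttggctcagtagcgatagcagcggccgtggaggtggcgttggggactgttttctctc

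The motif searched was GAAANNGAAA, or TTTCNNTTTC on the other strand. The ISG15 window held 2 matches, which overlap and start at bases -113 and -107 from the start site. The HERC5 window held 3, of which those at -125 and -119 overlap and the other begins at -74. No match was found in the windows of HERC6 and ARIH1 or in the 2 windows of UBE2L6, which says only that these letters are absent there. Of 35116 RefSeq promoter windows of the same length, 3.57% held the motif. A longer form with 1 more base, GAAANNGAAAC, was found in the same 2 members and in 0.795% of all windows. The gamma-activated site TTCNNNGAA was in 7.66% of all windows and in 0 of the 6 windows of the members. Windows for 5 of the 7 members were matched, and UBA7 and USP18 are named only. A match is a description of the sequence and shows no binding.

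**Figure D1:**
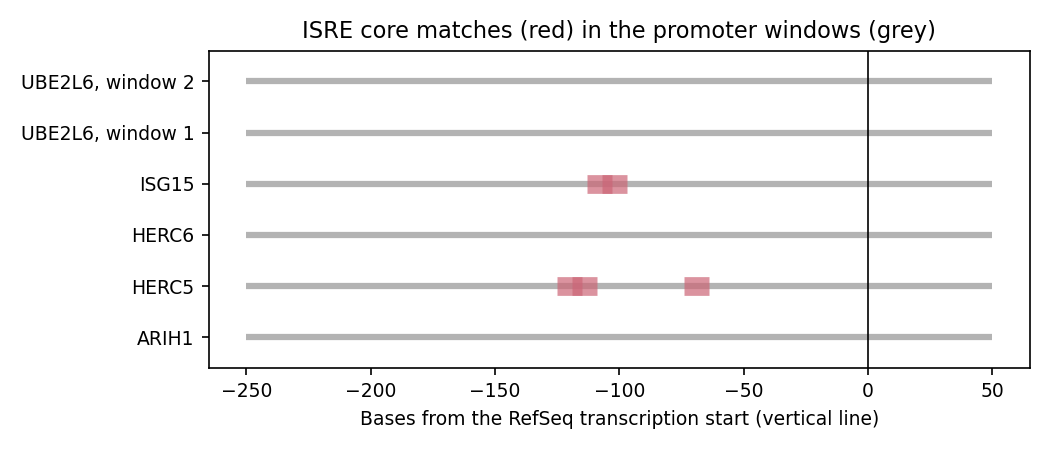
Positions of ISRE core matches (red; overlapping matches are darker) in the 6 promoter windows of the members (grey), in bases from the RefSeq start site. ISG15 has 2 matches and HERC5 has 3, the farthest of them beginning at -125 and the nearest at -74, and the other 4 windows have none.

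The libraries held 17757595 to 24533979 counts. Of 14051 genes tested, 4175 changed with ruxolitinib, with 2267 lower and 1908 higher. Macrophage and monocyte markers were present, with 10 of 10 detected and 9 tested, at a summed 1247 to 1311 CPM (counts per 1000000) in control and 742 to 792 CPM with ruxolitinib. Most of them were lower with ruxolitinib, but not all. CD68 went from 414 to 439 CPM in control to 196 to 201 CPM with ruxolitinib, and CSF1R from 383 to 407 to 152 to 198 CPM. CD14 went from 114 to 118 to 63.1 to 70.7 CPM, and TYROBP from 138 to 144 to 117 to 131 CPM. SPI1, ITGAM and FCGR1A were also lower in every ruxolitinib library than in every control library. LYZ was higher with ruxolitinib (28.1 to 31.25 against 25.9 to 26.1 CPM), CEBPB overlapped between the groups (103 to 109 against 72.4 to 107 CPM), and MRC1 was near 0 in both. Markers of other cells were low. The T cell genes CD3D, CD3E and CD3G, the epithelial gene KRT19 and the erythroid gene HBB had no count in any library, and the 5 B cell and 5 endothelial markers summed to at most 2.27 CPM. The 5 fibroblast markers summed to 6.58 to 7.21 CPM in control and 9.40 to 10.2 CPM with ruxolitinib, most of it PDGFRA, while COL1A2 was at or near 0. Their part in the results was not tested. Fewer cells of a type and less RNA per cell cannot be told apart in bulk RNA.

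The modifier, its E1, its E2, both HERC genes and the protease fell with ruxolitinib, to between 2.47% and 37.3% of their control level, and ARIH1 did not. Of the 7 members, 6 were lower and 1 was higher at an adjusted p under 0.05, where 29.7% of all tested genes passed, 16.1% lower and 13.6% higher. The median log2 fold change of the members was -3.36, beside -0.01 over all genes tested. All 6 that fell did so by a log2 fold change beyond -1, and 2.97% of tested genes both passed the threshold and fell that far. The groups did not overlap for any of the 7, as for 44.2% of all tested genes (23.8% on the lower side and 20.5% on the higher side). Adjusted p-values come from edgeR's quasi-likelihood test over all tested genes, and levels are CPM after TMM scaling. Together the members took 0.0639% to 0.0640% of the counts in the control libraries and 0.0170% to 0.0187% with ruxolitinib.

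**Figure D2:**
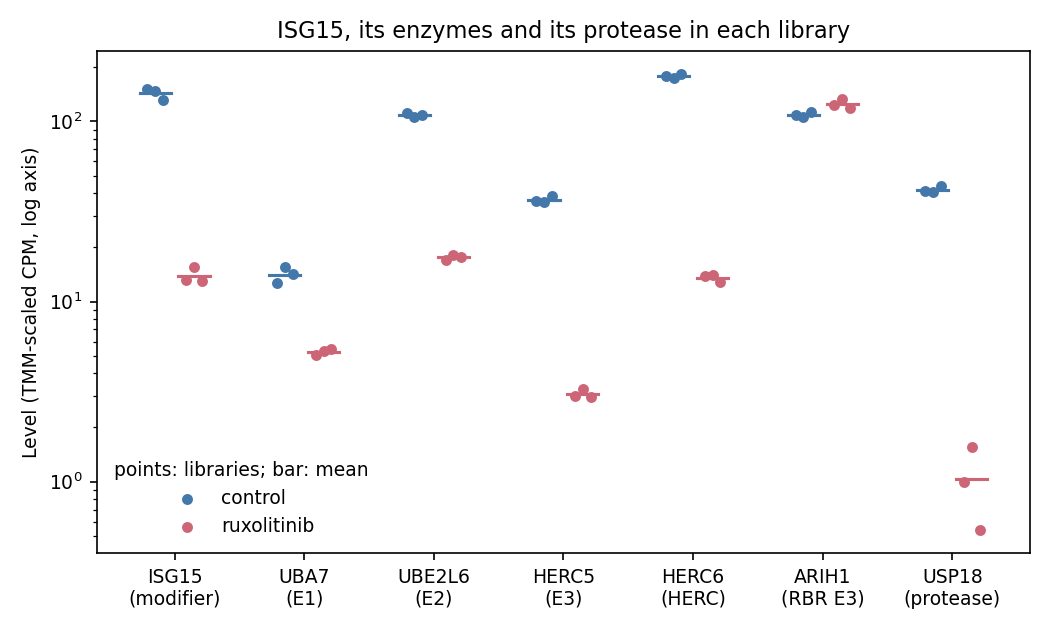
Level of each member in each library, in TMM-scaled CPM on a log axis, with control in blue, ruxolitinib in red and the group mean as a bar. For 6 members all ruxolitinib points lie below all control points, with USP18 at 0.537 to 1.55 CPM against 40.4 to 43.6 CPM, while for ARIH1 they lie slightly above.

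ISG15 (ENSG00000187608, chromosome 1, 1001138 to 1014540, plus strand; GENCODE 29 on GRCh38, as for all members) is the modifier itself, and its promoter holds the overlapping ISRE cores shown above. It was at 152, 147 and 131 CPM in control replicates 1 to 3. With ruxolitinib it was at 13.2, 15.7 and 12.9 CPM. Every ruxolitinib library lay about an order of magnitude below every control library. The mean was 143 ± 10.9 CPM and then 13.9 ± 1.49 CPM (SD, n = 3 per group), with a log2 fold change of -3.36 ± 0.08 (SE, adjusted p = 6.5e-11 by edgeR). The batch field of the labels puts 1 library of each group in each of 3 batches, and within batches 1, 2 and 3 the log2 difference was -3.52, -3.23 and -3.34. Of the 14051 genes, 45 had a larger fall.

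UBA7 (ENSG00000182179, chromosome 3, 49805207 to 49813946, minus strand), the dedicated E1 of ISG15, had the smallest fall of the 6. UBA7 was at 12.6, 15.5 and 14.2 CPM in control and at 5.04, 5.31 and 5.42 CPM with ruxolitinib. The groups are well apart, although the control libraries spread more than those with the drug. The mean was 14.1 ± 1.46 CPM and then 5.26 ± 0.196 CPM, and the log2 difference -1.43 ± 0.12 (edgeR, adjusted p = 2.4e-06), which left 37.3% of the control level. The batches gave -1.32, -1.55 and -1.39, and 210 of all tested genes had a larger fall.

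UBE2L6 (ENSG00000156587, chromosome 11, 57551656 to 57568284, minus strand), the E2 also called UBCH8, had the tightest control values of the members. It was at 112, 106 and 108 CPM in control and at 17.0, 18.1 and 17.7 CPM with ruxolitinib. Every ruxolitinib library was far below the controls, and the libraries within a group hardly differed. The mean was 6.19-fold lower, at 17.6 ± 0.564 against 109 ± 2.95 CPM (edgeR, log2 fold change -2.63 ± 0.06 with adjusted p = 4.9e-12), with 64 genes falling further. By batch the UBE2L6 difference was -2.72, -2.56 and -2.61.

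HERC5 (ENSG00000138646, chromosome 4, 88457117 to 88506163) and HERC6 (ENSG00000138642, chromosome 4, 88378739 to 88443111) lie side by side on the plus strand, 14006 bases apart. HERC5 was at 36.1, 35.8 and 38.6 CPM in control and at 2.99, 3.27 and 2.95 CPM with ruxolitinib. HERC6 was at 178, 174 and 184 CPM in control and at 13.9, 13.99 and 12.8 CPM with ruxolitinib. In both genes the 3 ruxolitinib libraries were close together and far below the controls. The mean of HERC5 was 36.8 ± 1.57 and then 3.07 ± 0.172 CPM (edgeR, log2 fold change -3.58 ± 0.09 with adjusted p = 2.8e-11). HERC6 fell from 179 ± 5.36 to 13.6 ± 0.678 CPM (-3.72 ± 0.06, adjusted p = 5.2e-13 by edgeR). By batch the log2 difference was -3.59, -3.45 and -3.71 for HERC5 and -3.68, -3.64 and -3.85 for HERC6. Of the 14051 tested genes, 37 fell further than HERC5 and 34 further than HERC6. The HERC6 window shown above has no ISRE core, while the HERC5 window has 3.

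ARIH1 (ENSG00000166233, chromosome 15, 72474326 to 72602985, plus strand) was the member that did not fall. It was at 108, 106 and 113 CPM in control and at 124, 133 and 119 CPM with ruxolitinib. The groups do not overlap, but the lowest ruxolitinib library was only slightly above the highest control. The mean was 109 ± 3.67 CPM in control and 125 ± 7.14 CPM with ruxolitinib, and the rise was 0.20 ± 0.05 on the log2 scale (adjusted p = 0.015 by edgeR). Within batches 1, 2 and 3 the log2 difference was 0.20, 0.32 and 0.07. The call was lost with the batch as a replicate block (adjusted p = 0.0699), without control replicate 1 (0.0632), without ruxolitinib replicate 1 (0.0527) and with batch 1 left out (0.179), with the direction kept each time.

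USP18 (ENSG00000184979, chromosome 22, 18149899 to 18177397, plus strand), the ISG15 protease, had the largest fall of the members, and 9 of the 14051 genes fell further. It had 733, 1013 and 1004 counts in control replicates 1 to 3 and 19, 29 and 10 counts with ruxolitinib. On the CPM scale these were 41.3, 40.4 and 43.6 against 0.998, 1.55 and 0.537. The ruxolitinib libraries are all far below the controls and differ more among themselves, with a coefficient of variation of 49.5% against 4.01% in control. The drop in the mean was from 41.8 ± 1.68 to 1.03 ± 0.509 CPM, or -5.33 ± 0.18 in log2 (edgeR, adjusted p = 1.7e-08), and within batches 1, 2 and 3 the log2 difference was -5.37, -4.70 and -6.34. USP41 is a near copy of USP18 on chromosome 22 at 20350578 to 20390758: 675 of the 1188 bases of its longest GENCODE transcript align to USP18 with 99.0% identity. Reads could be split between the copies, so both are uncertain to that extent. USP41 had 30 counts in control and 3 with ruxolitinib, beside 2750 and 58 for USP18, and did not pass the filter on low counts. It was tested in 6 alternatives and lower in 4 of them, among these the fit with no filter (adjusted p = 0.00236), but not without ruxolitinib replicate 1 (0.129) or 2 (0.101).

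Since the members fell by different amounts, their proportions within a library changed, which a ratio of read counts shows without any scaling between libraries. Reads of ISG15 per read of USP18 were 3.69, 3.63 and 3.01 in control and 13.3, 10.1 and 24.1 with ruxolitinib. The ruxolitinib values rest on 19, 29 and 10 counts of USP18, whose reads could also be split with USP41. With that limit, the ISG15 transcript was more abundant relative to that of USP18 in every ruxolitinib library. The difference was 2.11 on the log2 scale (from 1.78 ± 0.16 to 3.88 ± 0.64, SD, n = 3), and protein was not measured. Reads of ISG15 per read of UBA7 moved the other way, from 12.1, 9.44 and 9.26 to 2.63, 2.95 and 2.39, a log2 difference of -1.95. ISG15 per read of UBE2L6 went from 1.36, 1.38 and 1.21 to 0.780, 0.867 and 0.730. UBE2L6 per read of UBA7 went from 8.88, 6.84 and 7.63 to 3.37, 3.40 and 3.27. The other ratios moved far less. HERC5 per read of HERC6 was 0.203, 0.206 and 0.209 in control and 0.215, 0.234 and 0.231 with ruxolitinib, and the log2 ratio of ISG15 to HERC5 differed by 0.22. Across all 6 pairs compared the groups did not overlap, and each exact two-sided permutation test gave p = 0.1 (0.1 adjusted over the 6 pairs), which is the lowest value that this test can give with 3 libraries against 3, so it cannot pass 0.05 here.

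**Figure D3:**
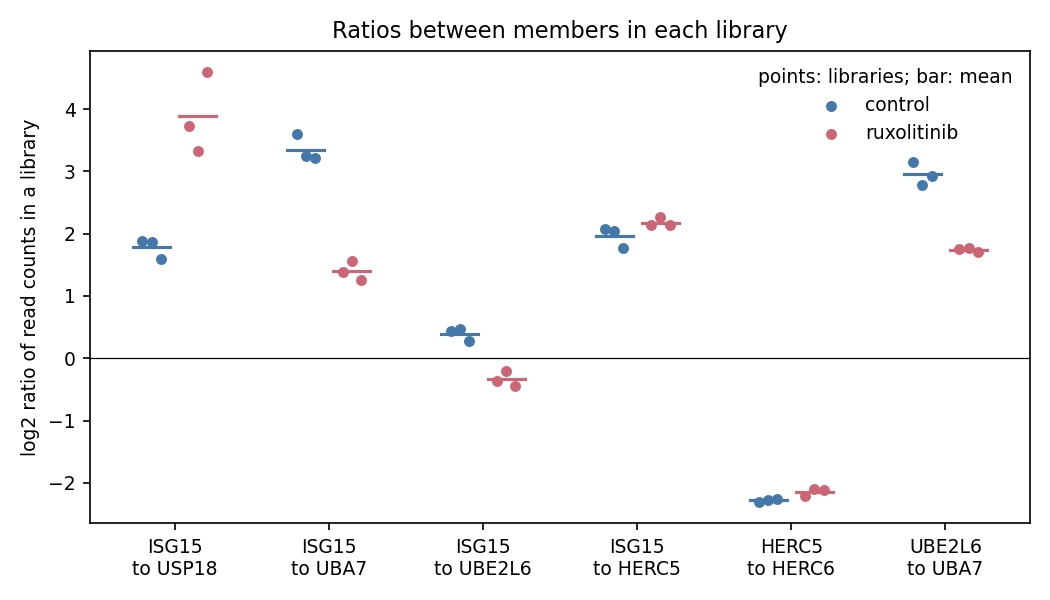
log2 ratio of read counts between 2 members in each library, with control in blue, ruxolitinib in red and the group mean as a bar. ISG15 to USP18 rises from a mean of 1.78 to 3.88, the ratios to UBA7 and UBE2L6 fall, and HERC5 to HERC6 stays within -2.30 and -2.10.

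Levels were set side by side between genes as transcripts per 1000000 (TPM), with reads divided by the merged exon length of GENCODE 29. In control the order was ISG15 at 479 ± 30.6 TPM, UBE2L6 at 156 ± 1.03, HERC6 at 97.1 ± 3.82, USP18 at 61.8 ± 3.10, HERC5 at 24.3 ± 1.35, ARIH1 at 15.02 ± 0.671 and UBA7 at 9.79 ± 1.22 TPM (SD, n = 3). Neighbours in that order lie apart by more than their spread. With ruxolitinib ISG15 was at 45.4 ± 5.75 TPM and UBE2L6 at 24.5 ± 1.02, ARIH1 followed at 16.8 ± 1.33, and HERC6 was at 7.18 ± 0.521, UBA7 at 3.54 ± 0.114, HERC5 at 1.98 ± 0.151 and USP18 at 1.49 ± 0.765 TPM. HERC5 and USP18 overlap there, and UBA7, the lowest in control, was above both. The place of ARIH1 rests on its length: 22880 merged exon bases, beside 4545 for UBA7 and 941 for ISG15. Divided by coding length, ARIH1 was at 56.0 ± 2.09 TPM in control, beside 52.3 ± 1.67 for HERC6 with ranges that just overlap. With ruxolitinib ARIH1 was at 58.5 ± 1.73, above UBE2L6 at 28.7 ± 0.886 and ISG15 at 23.3 ± 1.85 TPM. UBE2L6 lay above ISG15 there without overlap, so their order with the drug also depends on the length used.

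UBE2L6 has a close relative, UBE2L3, the E2 with which ARIH1 is best known to work in ubiquitin transfer. UBE2L3 was at 185, 166 and 185 CPM in control and at 171, 172 and 171 CPM with ruxolitinib, with overlapping groups (log2 fold change -0.06 ± 0.05, adjusted p = 0.405 by edgeR). Per exon length, the UBE2L6 level stood at 1.06, 1.12 and 1.02 times UBE2L3 in the control libraries and at 0.173, 0.184 and 0.181 times with ruxolitinib. Per coding length the ratio was 0.791, 0.837 and 0.762 in control and 0.130, 0.138 and 0.136 with ruxolitinib, so the order of the 2 E2 genes in control depends on the length used, while UBE2L6 was the lower with the drug by either length.

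Each member was then set beside the rest of its enzyme family, counted without the members. For each count of a family or list in the main fit from here on, the share over all tested genes is 16.1% lower and 13.6% higher. The calls over all genes moved between the alternatives as well. They were 1957 lower and 2318 higher with upper-quartile scaling, and 2621 and 1578 with library totals alone. The replicate block gave 1627 and 1288. Leaving out batch 1 gave 1143 and 840 of 14368 genes, and leaving out batch 2 gave 2481 and 2553 of 14124. Family counts in those settings are to be read beside these. None of the 13 other tested ubiquitin-like modifier genes fell, 6 rose and 7 did not pass, with a median log2 fold change of 0.07. Counted with ISG15, the split was 6 higher and 1 lower, or 6 and 2 with library totals alone. It was 4 and 1 with the replicate block and with batch 1 or batch 3 left out, and 4 and 2 with batch 2 left out. The split was also 4 and 1 without control replicate 2 or 3 and without ruxolitinib replicate 1 or 2. RPS27A, which encodes ubiquitin fused to a ribosomal protein, rose by 0.45 ± 0.06 in log2, and UFM1, another small modifier, rose by 0.33 ± 0.05. UBD, the interferon-inducible modifier FAT10, had no count in any library. Of 9 other E1 subunit genes 3 rose and 0 fell. Among them the autophagy E1 gene ATG7 rose by 0.23 ± 0.05 and the SUMO E1 subunit gene UBA2 by 0.23 ± 0.06. With batch 1 left out neither of these calls held (adjusted p = 0.11 and 0.151 in that order), and that of UBA2 was also lost with the replicate block (0.0695), without control replicate 1 (0.0503) and without ruxolitinib replicate 1 (0.0561). For UBA1, the main ubiquitin E1, the means were 227 ± 10.4 (control) and 244 ± 14.3 CPM (adjusted p = 0.192, but 0.0388 without ruxolitinib replicate 2 and 0.00427 with all of batch 2 left out).

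Of 33 other E2 genes, 4 rose, 5 fell and 24 did not pass, between log2 fold changes of -0.34 and 0.49. The lowest was UBE2E2 (-0.34 ± 0.06) and the highest UBE2T (0.49 ± 0.12, a call lost with batch 1 or batch 3 left out, at adjusted p = 0.143 and 0.0575), and UBE2M, the NEDD8 E2, rose by 0.31 ± 0.06. Counted with UBE2L6, this family had 4 higher and 6 lower calls, 7 and 4 with upper-quartile scaling, and 3 and 2 with the replicate block. In all, 6 passed without control replicate 1, control replicate 3, ruxolitinib replicate 1 or batch 3, and 3 without batch 1. UBE2N, the E2 of lysine-63 ubiquitin chains and a reported ISG15 substrate, stood at -0.01 ± 0.06 in log2 (adjusted p = 0.95). The value of -2.63 for UBE2L6 lies outside that range.

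The 4 other HERC genes moved little beside HERC5 and HERC6. HERC4 rose by 0.21 ± 0.04 on the log2 scale (adjusted p = 0.00302) and HERC1 by 0.21 ± 0.06 (0.0139). Both calls were lost with batch 1 left out (0.0891 and 0.192), and that of HERC1 also without control replicate 1 (0.077). HERC3 fell by 0.24 ± 0.08 (adjusted p = 0.0365), a call that 10 of 17 alternatives lost, among them the replicate block (0.0989) and the removal of any of the 3 control libraries or of ruxolitinib replicates 1 and 2 (0.0512 to 0.128). HERC2 was at -0.01 ± 0.11 in log2 (adjusted p = 0.943), and at 0.18 (0.0474) with batch 2 left out. With HERC5 and HERC6, 5 of the family passed, 3 without control replicate 1 and 2 without batch 1. Of 13 other RING-between-RING ligase genes 4 fell and 0 rose: RNF144A by 1.14 ± 0.17, RBCK1, a subunit of the linear ubiquitin complex, by 0.73 ± 0.09, ANKIB1 by 0.34 ± 0.06 and RNF19A by 0.27 ± 0.05 (adjusted p = 0.08 with batch 1 left out). Of this family, ARIH1 included, 5 passed, and 3 with batch 1 left out. ARIH2, a relative of ARIH1, was at 60.9 ± 3.51 and 58.3 ± 2.78 CPM (adjusted p = 0.455).

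Of 42 other ubiquitin-specific protease genes, 4 rose, 6 fell and 32 did not pass, with the lowest log2 fold change at -0.71, in USP2. USP25 fell by 0.48 ± 0.05, and USP9X and USP7 rose by 0.38 ± 0.05 and 0.30 ± 0.04. With USP18 counted, 11 of the family passed, 7 lower and 4 higher, or 7 and 7 with upper-quartile scaling and 10 and 4 with library totals alone. The count was 17 without control replicate 2, 7 with batch 1 left out and 20 with batch 2 left out.

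**Figure D4:**
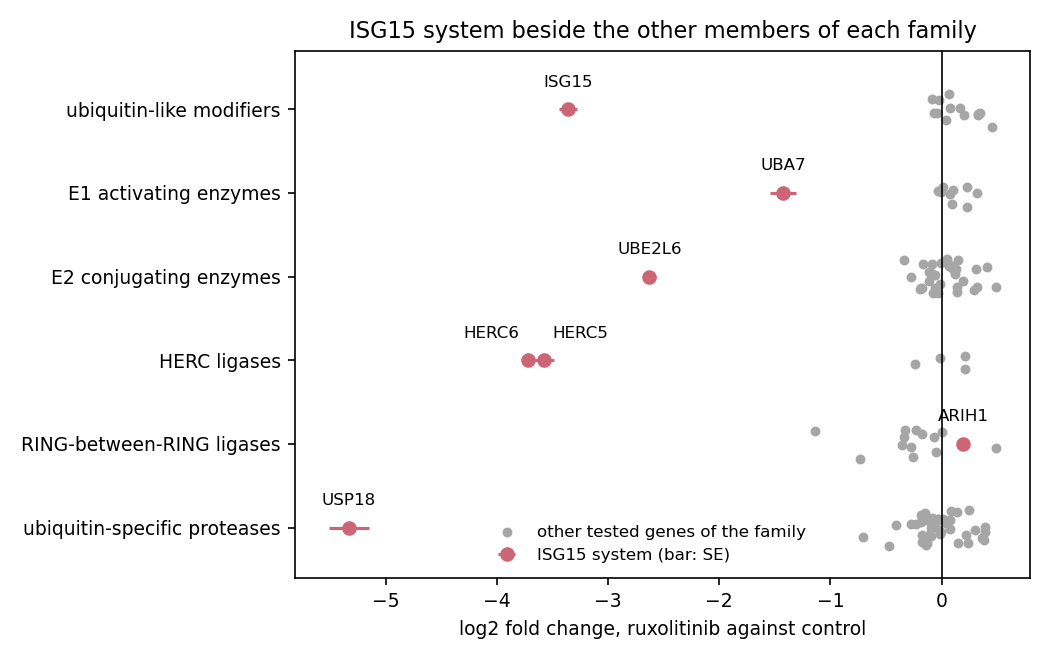
log2 fold change with ruxolitinib of the 7 members (red, with SE bars) and of the other tested genes of each family (grey, jittered vertically). ISG15, UBA7, UBE2L6, HERC5, HERC6 and USP18 lie at -1.43 or lower, while ARIH1 lies among its family and the grey points of all families lie between -1.14 and 0.49.

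Among other enzymes and regulators of ISG15, 11 were tested, of which 4 fell and 2 rose (median log2 fold change -0.06), with 4 and 1 by library totals alone, 4 and 0 with batch 1 left out, and 6 and 3 with batch 2 left out. TRIM25, a ligase that carries ISG15 itself and was reported as an ISG15 ligase, was at 142, 143 and 142 CPM in control and at 28.4, 26.1 and 27.7 CPM with ruxolitinib. It fell by 2.38 ± 0.05 on the log2 scale (adjusted p = 5.97e-12 by edgeR). BST2, the tetherin gene, is counted in this list although it is not an ISG15 enzyme, and it fell by 2.15 ± 0.04. ITGAL, a chain of LFA-1, the reported receptor of secreted ISG15, fell by 0.52 ± 0.10, and USP2, a protease reported to react with ISG15, by 0.71 ± 0.14. USP13, another reported ISG15-reactive protease, rose by 0.39 ± 0.09 (adjusted p = 0.00845, but 0.129 with batch 1 left out). SKP2, the adaptor that marks USP18 for degradation, had means of 18.2 ± 0.764 and 21.2 ± 0.459 CPM (0.22 ± 0.07 in log2, adjusted p = 0.038), a call lost in 13 of 17 alternatives, including the removal of any single library (0.0521 to 0.101).

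The factors known to switch on these genes moved unequally. IRF9 fell from 61.4 ± 0.223 to 12.6 ± 1.01 CPM (-2.29 ± 0.07 in log2) and STAT2 from 127 ± 4.36 to 57.7 ± 7.27 CPM (-1.14 ± 0.08). STAT2 is also the partner with which USP18 reaches the receptor. Values for the receptor and kinase genes were nearer 0. IFNAR2, the chain bound by USP18, had -0.15 ± 0.07 (adjusted p = 0.154, but 0.0408 without control replicate 2 and 0.0468 with batch 2 left out). TYK2 had 0.34 ± 0.16 (adjusted p = 0.174, or 0.0155 by DESeq2 and 0.00237 with no filter on low counts). With no filter its SE was 0.0856 at the same fold change, so that p-value is not on the scale of the main fit. TYK2 was at 0.52 without control replicate 2 (adjusted p = 0.000549) and at 0.60 with batch 2 left out (6.73e-09). IFNAR1 (0.19 ± 0.06, adjusted p = 0.0313) lost its call in 8 of 17 alternatives and JAK1 (-0.16 ± 0.05, adjusted p = 0.0258) in 10, including the replicate block (0.0971 and 0.103). Single libraries that ended the IFNAR1 call were control replicates 2 and 3 and ruxolitinib replicates 1 and 2 (0.0739 to 0.092), and for JAK1 they were replicates 1 and 3 of both groups (0.0839 to 0.172). Of the 7 genes in this list 4 were lower and 1 higher, and 3 lower and 0 higher with the replicate block, without control replicate 3, without ruxolitinib replicate 1 or with batch 1 left out. With library totals alone 4 were lower and 0 higher, and by DESeq2 3 and 2.

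Proteins reported to carry ISG15 were looked at by their transcripts. Of 25 tested, 13 were lower and 2 higher (median log2 fold change -0.16), where 16.1% of all tested genes were lower and 13.6% higher. The list was not tested as a set. With the replicate block, and likewise with batch 1 left out, 9 were lower and 0 higher. Among the 4 with the smallest adjusted p-values were 3 antiviral effectors: the viral RNA binder IFIT1 (log2 fold change -7.01 ± 0.11), the RNA sensor gene RIGI, listed in the table as DDX58 (-4.62 ± 0.09), and EIF2AK2, the kinase PKR (-3.20 ± 0.05). EIF4E2, the reported ARIH1 substrate, was named after its value was seen. It was at 155, 156 and 156 CPM in control and at 178, 187 and 166 CPM with ruxolitinib, a rise of 0.18 ± 0.05 on the log2 scale (adjusted p = 0.0171). That call was lost in 4 settings (adjusted p = 0.0691 with the replicate block, 0.0651 without control replicate 1, 0.0737 without ruxolitinib replicate 1 and 0.221 with batch 1 left out). The calls of ARIH1 and of the SUMO E1 subunit gene UBA2 were lost in the same 4. The main adjusted p-values of EIF4E2, ARIH1 and UBA2 lay close together, at 0.0171, 0.0154 and 0.0159 by edgeR, so the match is not particular to ARIH1 and EIF4E2.

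The tested genes whose profile over the 6 libraries was most like that of ISG15, by Euclidean distance of centred log2 CPM, were RTP4 (distance 0.26), GBP1 (0.31), PLSCR1 (0.33), IFITM1 (0.33) and HERC5 (0.35), with log2 fold changes from -3.58 to -3.13. HERC5 was the only member among these 5. For USP18 they were PARP9 (0.77), EPSTI1 (0.82), MX2 (0.82), OAS1 (0.88) and TRIM22 (0.90), at log2 fold changes from -5.80 to -4.86. The distances around USP18 are larger, and its own libraries with ruxolitinib held 10 to 29 counts each. For ARIH1 they were HBP1, RAD1, NBR1, TRIP12 and MRPL28, at distances of 0.02 to 0.04 and log2 fold changes of 0.19 to 0.21.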

How the data were processed

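Poly-A-selected RNA of THP-1 cells was sequenced in 6 libraries, 3 per group. One deposited table holds the authors' read counts, as whole numbers, for 61517 genes. The build was hg38, per the submitters' processing notes, while nothing on aligner, counter, annotation release or strand is given in the sources used here, so reads of overlapping genes cannot be separated. Control replicates 1 to 3 had total counts of 17757595, 24533979 and 22780991, those with ruxolitinib 19253534, 19041988 and 18796476, and 3 counts, the upper limit that a count of 0 allows, come to 0.122 to 0.169 CPM (counting error only).

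Counts were tested with edgeR 4.0.16 in R 4.3.3 (quasi-likelihood, robust, TMM scaling, filterByExpr with a minimum count of 10 and total of 15), with Benjamini-Hochberg adjustment over 14051 genes and a threshold of 0.05. Each SE is the log2 fold change divided by the root of its F value. Ratios of members used an exact permutation test. GENCODE 29 on GRCh38 held 58296 of the gene identifiers and gave coordinates and lengths; RefSeq gave promoters; USP41 was aligned with blastn 2.17.0. Alternatives were other scalings and filters, DESeq2 1.42.0, limma-voom (limma 3.58.1), the batch as a block, and leaving out each library or batch; coding length was chosen as a further alternative after seeing the data. The scripts were tested on simulated counts.

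The labels give a shared batch number to 1 library of each group, which is the ground for pairing them. Across genes, the deviations from the group means correlated at -0.0173, -0.194 and -0.105 within batches 1, 2 and 3. Between control and ruxolitinib libraries of different batches they correlated at -0.0739 to 0.161, so libraries that share a batch were not more alike by this measure. The members and gene lists were chosen with earlier results of these data known. Named are the members, up to 4 genes per list with the smallest adjusted p, a fixed set of relatives and regulators, the 5 closest profiles of ISG15, USP18 and ARIH1, and the neighbouring genes. EIF4E2, HERC2, IFNAR1, IFNAR2, JAK1, TYK2 and USP13 were added after their values were seen, and JAK1 also falls under the rule of smallest adjusted p. Some genes that the rule names are not reported here.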

Additional observations from a re-analysis of the deposited data

How the results depend on the processing

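ISG15, UBA7, UBE2L6, HERC5, HERC6 and USP18 kept their direction and their call in all 17 alternatives, with log2 fold changes of -3.45 to -3.28, -1.49 to -1.36, -2.66 to -2.58, -3.65 to -3.52, -3.76 to -3.65 and -5.78 to -5.00. ARIH1 stayed higher at 0.13 to 0.26 and lost its call in 4. With the batch as a replicate block, 2915 genes passed in place of 4175, and the counts were 3 in the ISGF3 and receptor list, 9 among reported substrates and 5 among E2 genes (5, 15 and 10 without the block). The block left the calls of the 6 lower members in place. For the ratios, the exact sign-flip permutation test on 3 pairs gave p = 0.25, the lowest it can reach. Without both libraries of batch 1, 1983 genes passed, and the counts were 3 in the ISGF3 and receptor list, 9 substrates, 1 E1 gene, 3 E2 genes, 2 HERC genes, 3 RING-between-RING genes and 7 proteases. Without batch 2, 5034 genes passed in all and the proteases came to 20. Without batch 3, 2914 genes passed and the E2 genes came to 6. HERC2 turned from -0.01 to 0.18 on the log2 scale (adjusted p = 0.0474 by edgeR) without both libraries of batch 2. The cause was not tested. Leaving out single libraries gave 2941 to 4266 genes in all, 3 to 6 in the ISGF3 and receptor list, 6 to 12 E2 genes, 3 to 5 HERC genes and 8 to 17 proteases. Depth limits USP18 with ruxolitinib, at 10 to 29 counts, and USP41.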

Other observations

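The genes beside the members on the chromosome were read out in the same edgeR fit. Of 24 genes that overlap a member or are its nearest annotated or protein-coding neighbour on either side, 9 were high enough to test. Among these 2 passed the threshold, both lower, where 29.7% of all tested genes passed and 16.1% passed as lower. PPM1K, a mitochondrial phosphatase gene 93970 bases from HERC6 on chromosome 4, at lower coordinates, was at 16.1, 12.2 and 14.8 CPM in control and at 6.88, 6.81 and 5.91 CPM with the drug, a log2 fold change of -1.13 ± 0.13 (adjusted p = 3.73e-05). SERPING1, the C1 inhibitor gene 29103 bases from UBE2L6 on chromosome 11, at higher coordinates, was at 1.01, 0.757 and 0.869 CPM in control and at 0.420, 0.429 and 0.430 CPM with ruxolitinib, with 8 counts in each ruxolitinib library (-1.02 ± 0.33, adjusted p = 0.0366). PYURF, the first protein-coding gene after HERC5, was at 0.21 ± 0.09 in log2 (adjusted p = 0.0898), and AGRN, the first gene after ISG15, -0.40 ± 0.20 (adjusted p = 0.189). INKA1, 177 bases from UBA7 on the opposite strand, had 0.12 ± 0.25 (adjusted p = 0.764), and TUBA8, 3345 bases before USP18, -0.27 ± 0.31 (adjusted p = 0.546).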
